A study of Homo sapiens with 3 samples.

Results

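Transcript levels of 10 BCL2 family genes were followed in Molm13 leukemia cells after pyrvinium. The genes were chosen by name, as survival members (BCL2, BCL2L1, MCL1 and BCL2A1), BH3-only members (BCL2L11, BBC3, PMAIP1 and BID) and effector members (BAX and BAK1), and were matched by Entrez identifier among the 25702 genes counted. All 10 were found. Molm13 is an established human acute myeloid leukemia line whose FLT3 receptor gene carries an internal tandem duplication. Cultures received DMSO, the vehicle, or pyrvinium pamoate, an anthelmintic dye that collects in mitochondria, at 50 nM or 100 nM for 6 h. Poly(A) RNA of each was sequenced once. The series therefore has 3 libraries, 1 per condition, all from 1 cell line, and no difference between them has a replicate check.

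The BCL2 family sets whether the outer mitochondrial membrane stays closed or opens to release cytochrome c, which starts the caspase cascade. BAX and BAK1 form the pores, the survival members hold the effectors and the BH3-only proteins in check, and the BH3-only proteins carry stress signals to them. NOXA, the product of PMAIP1, binds mainly MCL1 and BCL2A1, while PUMA, the product of BBC3, and BIM, the product of BCL2L11, bind all of the survival proteins. Acute myeloid leukemia cells commonly rely on BCL2 or MCL1, and BCL2 is the target of venetoclax. Much of the control of these proteins lies in stability, cleavage and binding, which transcript counts do not measure. The question here was which members differed in transcript level at 6 h, and whether BH3-only, effector and survival members moved differently.

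The libraries held 22677038 to 24075123 counted reads, with at least 1 read on 15355 to 15685 genes. The mitochondrially encoded genes took 4.68% to 5.59% of the reads. Of 11 myeloid marker genes, 10 passed the filter of at least 10 counts in at least 1 library, with a summed count of 34182 to 38707 per library, and ANPEP was the exception at 0 to 2 reads. FLT3 had 6304 reads with DMSO, 9012 at 50 nM and 11181 at 100 nM. The 3 B cell markers and the 3 epithelial markers had at most 6 reads in any library, HBB had 16 reads in the 50 nM library and none in the others, and CD3D had 13 to 26 reads. In RNA from whole cultures, fewer cells that express a gene and less of its RNA per cell cannot be told apart.

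None of the 10 members differed at least 2-fold between the 100 nM and the DMSO library at an adjusted p of 0.05 or below (two-sided exact binomial test of the counts, Benjamini-Hochberg adjustment over the 12879 genes that passed the filter), and 0 did so with an unadjusted p. This call was made for 2.2% of all genes tested. No member was called at 50 nM against DMSO or between the pyrvinium libraries either, where 0.955% and 0.497% of all genes were. All 10 members passed the filter. By the adjusted p alone, 6 of the 10 members differed at 100 nM, against 43.1% of all genes tested and 55.6% of the 8272 genes whose mean count was 300 or more, called well counted genes here and including 9 of the 10 members. BCL2, BBC3 and PMAIP1 rose, and MCL1, BAX and BAK1 fell. By that rule 21.1% of all genes tested and 25.7% of the well counted genes rose, and 22% and 29.9% fell, so the share of members that moved was close to that of other well counted genes. Values below are CPM, counts scaled to library size with the TMM method, and each log2 fold change has a 95% Clopper-Pearson interval in brackets. The test and the interval cover counting error only and compare the libraries, not the conditions.

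**Figure D1:**
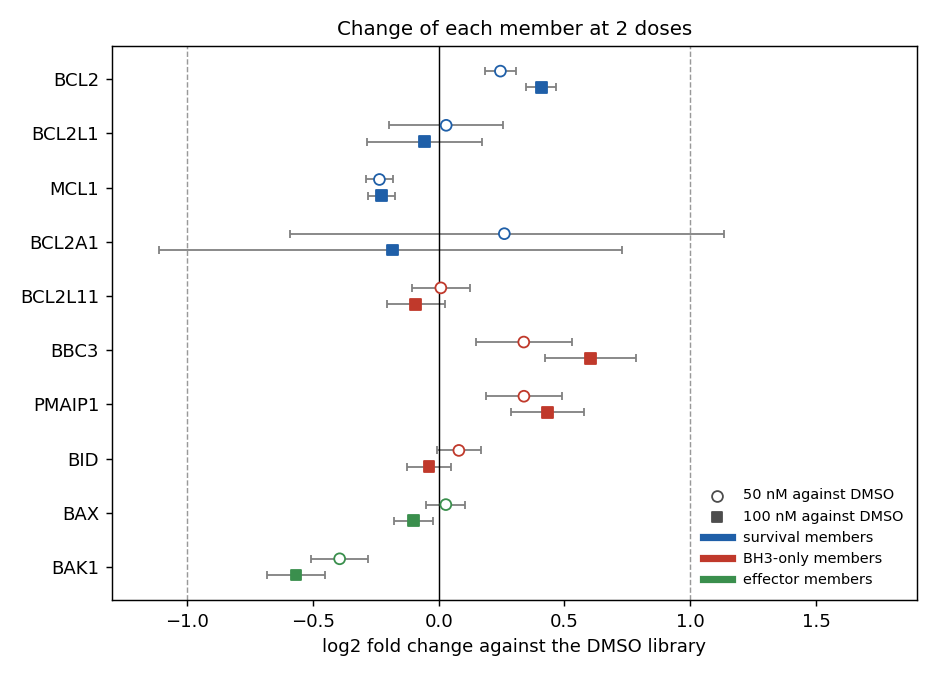
Log2 fold change of the 10 BCL2 family members in the 50 nM and the 100 nM library against the DMSO library. Points are single libraries against the same DMSO library, and bars are 95% Clopper-Pearson intervals of counting error. BBC3 (0.60), PMAIP1 (0.43) and BCL2 (0.41) lie above 0 at 100 nM, BAK1 (-0.57) and MCL1 (-0.23) lie below it, and no point reaches a 2-fold difference.

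Among the BH3-only members, BBC3 and PMAIP1 were higher after pyrvinium and BCL2L11 and BID differed by less than the test could call at 100 nM. BBC3 (Entrez 27113; hg19 chr19:47724079-47736023, minus strand, 5 exons) had 413 reads with DMSO, 510 at 50 nM and 653 at 100 nM, or 17.8, 22.5 and 27.1 CPM. Its level was lowest with DMSO and highest at 100 nM. The 100 nM library was 51.9% higher than DMSO, a log2 fold change of 0.60 [0.42 to 0.79] (adjusted p = 2.11e-10, exact binomial test). BBC3 was the 1 member of 10 to reach 1.5-fold, a rule that 6.71% of all genes tested and 3.11% of the well counted genes met. Of the well counted genes, 2.82% lay at least as far from 0 as BBC3, in either direction. At 50 nM it was 26.4% higher, with a log2 fold change of 0.34 [0.15 to 0.53] (adjusted p = 0.00273, exact binomial test).

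PMAIP1 (Entrez 5366; hg19 chr18:57567192-57571538, plus strand, 2 exons) had 663 reads with DMSO, 819 at 50 nM and 931 at 100 nM, or 28.6, 36.2 and 38.6 CPM. Both pyrvinium libraries were above DMSO. The log2 fold change was 0.34 [0.19 to 0.49] at 50 nM and 0.43 [0.29 to 0.58] at 100 nM (adjusted p = 7.30e-05 and 2.76e-08, exact binomial test). These are differences of 26.5% and 35.0%. Between the pyrvinium libraries PMAIP1 was 6.70% higher at 100 nM, which did not pass the test, and BBC3 was 20.2% higher, which did (adjusted p = 0.427 and 0.0161, exact binomial test). Whether the genes differ in this step was not tested.

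The sequences in front of the start sites of these 2 genes are shown because both transcripts were higher at both doses. They are the 250 bases upstream of the RefSeq start site (GRCh38.p14, a newer build than the hg19 of the counts), 5′ to 3′ on the gene's strand, with CG dinucleotides in capitals.
BBC3, chr19:47232668-47232917, minus strand: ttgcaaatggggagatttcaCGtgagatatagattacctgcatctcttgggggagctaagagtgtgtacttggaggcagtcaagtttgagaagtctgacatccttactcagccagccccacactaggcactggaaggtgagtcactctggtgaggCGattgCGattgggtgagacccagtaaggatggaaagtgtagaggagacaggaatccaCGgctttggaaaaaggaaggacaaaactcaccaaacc
PMAIP1, chr18:59899746-59899995, plus strand: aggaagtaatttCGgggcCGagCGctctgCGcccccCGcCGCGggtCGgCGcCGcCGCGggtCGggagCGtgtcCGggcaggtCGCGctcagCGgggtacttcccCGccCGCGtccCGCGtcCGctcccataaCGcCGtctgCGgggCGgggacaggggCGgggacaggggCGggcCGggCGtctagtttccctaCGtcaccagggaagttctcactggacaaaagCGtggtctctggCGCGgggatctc
The PMAIP1 window held 36 CG dinucleotides and 72.8% G and C, and the BBC3 window held 4 and 49.2%, against medians of 11 and 58.0% over 35116 windows of 27305 genes. RefSeq windows were at hand for 9 of the 10 members, 14 windows in all. Counts per gene do not show which start site was in use in these cells, for BBC3 as for the others. The motif TGATGNAA, the C/EBP-ATF response element bound by ATF4 and CHOP, was searched on both strands of the windows. For this search each window also took in the 50 bases after the start site, which are not printed. It occurred in 1 member, BCL2A1, as TGATGCAA at position -63 from the start site, and in 3.62% of all windows. These letters were not in the BBC3 or the PMAIP1 window. No other motif was searched, and no sequence outside the windows, so other sites of these factors may be present.

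BCL2L11 (Entrez 10018; hg19 chr2:111878491-111926022, plus strand, 5 exons) had 1243, 1221 and 1214 reads with DMSO, 50 nM and 100 nM, or 53.6, 53.9 and 50.4 CPM. The 3 libraries were close to each other. Its log2 fold change was 0.01 [-0.11 to 0.12] at 50 nM and -0.09 [-0.21 to 0.02] at 100 nM, so that counting error leaves room for a small decrease but not for a rise of the size of PMAIP1. BID (Entrez 637; hg19 chr22:18216906-18257258, minus strand, 7 exons), whose protein is activated by caspase-8 cleavage, had 2132, 2201 and 2159 reads, or 92.0, 97.3 and 89.5 CPM. Its log2 fold change was 0.08 [-0.01 to 0.17] at 50 nM and -0.04 [-0.13 to 0.05] at 100 nM. Neither value passed the test.

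The survival members moved in opposite directions. BCL2 (Entrez 596; hg19 chr18:60790579-60986613, minus strand, 3 exons) had 3908 reads with DMSO, 4524 at 50 nM and 5396 at 100 nM, or 169, 199.9 and 224 CPM. Its level followed the order of the doses. The log2 fold change was 0.25 [0.18 to 0.31] at 50 nM and 0.41 [0.35 to 0.47] at 100 nM, or a rise of 18.5% and 32.7% (adjusted p = 2.29e-13 and 4.18e-40, exact binomial test).

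MCL1 (Entrez 4170; hg19 chr1:150547034-150552136, minus strand, 3 exons), whose protein is short-lived, had 5948 reads with DMSO, 4933 at 50 nM and 5286 at 100 nM, or 257, 218 and 219 CPM. Both pyrvinium libraries were below DMSO and close to each other. The log2 fold change was -0.24 [-0.29 to -0.18] at 50 nM and -0.23 [-0.28 to -0.17] at 100 nM (adjusted p = 8.92e-16 and 1.38e-15, exact binomial test), a change of -15.1% and -14.6%. At 100 nM, 31.4% of the well counted genes lay at least as far from 0 in either direction, against 9.85% for BCL2.

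BCL2L1 (Entrez 598; hg19 chr20:30252261-30310656, minus strand, 3 exons), which encodes BCL-xL, had 321, 320 and 321 reads with DMSO, 50 nM and 100 nM. The 3 libraries held nearly the same number, and the log2 fold change at 100 nM was -0.06 [-0.28 to 0.17]. BCL2A1 (Entrez 597; hg19 chr15:80253232-80263643, minus strand, 3 exons), a survival gene induced by NF-kappaB in myeloid cells, had 23, 27 and 21 reads. At this depth its log2 fold change at 100 nM, -0.19, had an interval of -1.11 to 0.73, so that counting error leaves room for a 2-fold decrease. Reads of all isoforms of a gene were counted together, so the long and short forms of BCL2L1, MCL1 and BCL2L11, which can differ in function, were not separated.

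Both effectors were lower at 100 nM, by different amounts. BAK1 (Entrez 578; hg19 chr6:33540323-33548070, minus strand, 6 exons), which encodes BAK, had 1530 reads with DMSO, 1137 at 50 nM and 1074 at 100 nM, or 66.0, 50.2 and 44.5 CPM. The DMSO library was the highest of the 3. The log2 fold change was -0.39 [-0.51 to -0.28] at 50 nM and -0.57 [-0.68 to -0.45] at 100 nM, a change of -23.9% and -32.5% (adjusted p = 7.46e-11 and 6.64e-22, exact binomial test). Of the well counted genes, 3.52% lay at least as far from 0 in either direction at 100 nM, which places BAK1 and BBC3 farthest out among the members. RefSeq lists BAK1P1 and BAK1P2, pseudogenes of BAK1 that have no entry of their own in the counts, and how reads shared with them were counted is not known.

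BAX (Entrez 581; hg19 chr19:49458117-49465055, plus strand, 7 exons) had 2701, 2690 and 2621 reads with DMSO, 50 nM and 100 nM, or 117, 119 and 109 CPM. The 100 nM library was the lowest. The log2 fold change was 0.03 [-0.05 to 0.11] at 50 nM and -0.10 [-0.18 to -0.02] at 100 nM, a change of -6.72% at the higher dose (adjusted p = 0.0293, exact binomial test). Among the well counted genes, 65.2% lay at least as far from 0 in either direction, so a difference of this size was common between these libraries.

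At 50 nM, 5 members passed the adjusted p, BCL2, BBC3 and PMAIP1 as higher and MCL1 and BAK1 as lower, against 28.2% of all genes tested (14.3% higher and 13.9% lower) and 38.2% of the well counted genes. None of the 10 reached 1.5-fold with the adjusted p, against 2.58% of all genes tested. Both pyrvinium libraries were set against the same DMSO library, so the values at the 2 doses share its counting error. Between the pyrvinium libraries, which share no control, 5 members passed the adjusted p, against 16.9% of all genes tested (7.69% higher and 9.25% lower) and 23.8% of the well counted genes. BCL2 was higher at 100 nM than at 50 nM by 0.16 [0.11 to 0.22] and BBC3 by 0.26 [0.10 to 0.44] on the log2 scale. BAK1 was lower by -0.17 [-0.30 to -0.05], BAX by -0.13 [-0.21 to -0.05] and BID by -0.12 [-0.21 to -0.03]. PMAIP1 differed by 0.09 [-0.04 to 0.23] and MCL1 by 0.01 [-0.05 to 0.06], and neither passed the test.

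By role, the median log2 fold change at 100 nM was 0.20 over the 4 BH3-only members, -0.12 over the 4 survival members and -0.33 over the 2 effectors, beside -0.0023 over all genes tested. At 50 nM these medians were 0.21, 0.14 and -0.18, beside 0.0007 over all genes. The BH3-only median at 100 nM lies in the gap between BID (-0.04) and PMAIP1 (0.43). The effector median lies between BAX (-0.10) and BAK1 (-0.57). No member lies near either value, so they do not describe a typical member. The survival median at 100 nM lies between BCL2L1 (-0.06) and BCL2A1 (-0.19), whose intervals both span 0. BCL2A1, with 23, 27 and 21 reads, was at 0.26 [-0.59 to 1.13] at 50 nM, so the sign of the survival median is not settled. Of the BH3-only members, 2 rose and 0 fell at either dose. Of the survival members, 1 rose and 1 fell at either dose. Of the effectors, 0 rose and 2 fell at 100 nM, and 1 fell at 50 nM. No role group therefore moved as a whole at both doses, and the survival group held a rise and a fall of well counted genes.

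Levels of different genes were compared per length, as TPM, in which counts are divided by gene length and scaled to the same sum in each library. BAX was the most abundant member in every library, with 180.3, 185 and 171 TPM with DMSO, 50 nM and 100 nM. MCL1 came next at 125, 106 and 108 TPM, and BCL2A1 was lowest at 2.04, 2.47 and 1.83 TPM. With DMSO the order was BAX, MCL1, BID (68.7), BAK1 (58.5), BCL2 (49.5), PMAIP1 (28.7), BCL2L11 (19.6), BBC3 (16.5), BCL2L1 (10.5) and BCL2A1, and no neighbours in this order had overlapping 95% Poisson intervals. At 100 nM BCL2 (66.8) stood next to BID (68.0) with overlapping intervals, and BAK1 (40.2) next to PMAIP1 (39.4), also overlapping. BBC3 (25.6) then stood above BCL2L11 (18.7) without overlap, while at 50 nM these 2 genes had overlapping intervals at 21.0 and 19.8 TPM. BAK1 and BCL2 thus changed places, as did BCL2L11 and BBC3.

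**Figure D2:**
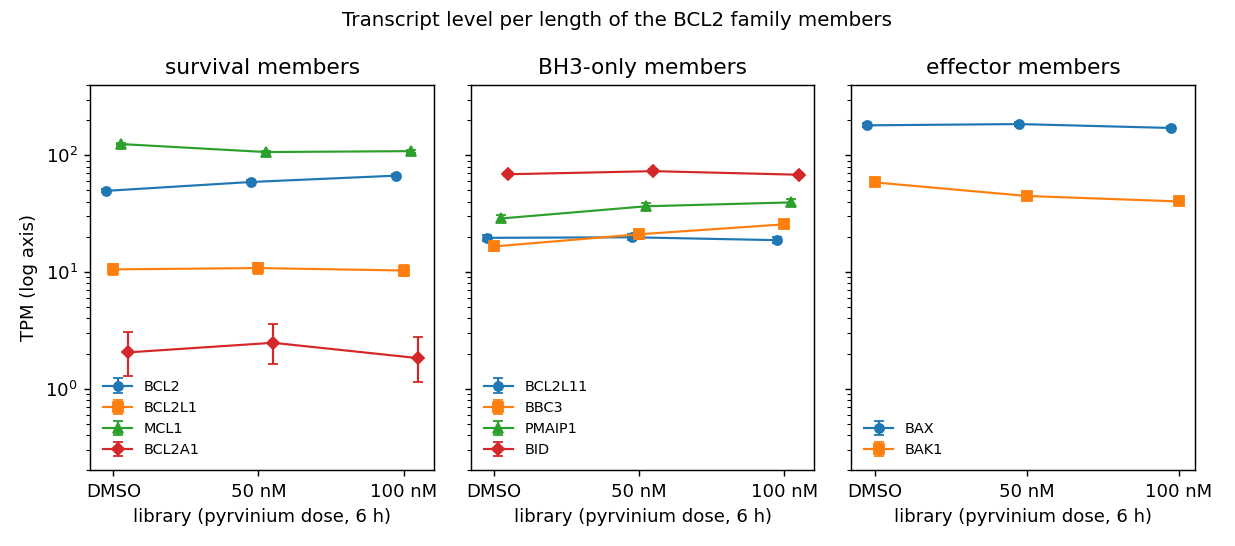
TPM of each member in the 3 libraries on a log axis, with 1 panel per role. Points are single libraries, joined by lines to follow a gene, and bars are exact Poisson intervals of 95% of the count. BCL2 climbs from 49.5 to 66.8 TPM, BBC3 from 16.5 to 25.6 TPM and BAK1 drops from 58.5 to 40.2 TPM, while BCL2L1 and BCL2L11 stay nearly level.

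Summed over its members, the survival group had 187 TPM with DMSO, 179 at 50 nM and 187 at 100 nM. Within that sum MCL1 went from 66.8% to 59.6% and 57.9%, and BCL2 from 26.5% to 33.0% and 35.7%. The BH3-only group summed to 134, 150.4 and 152 TPM, and the share of BBC3 and PMAIP1 in it went from 12.4% and 21.5% with DMSO to 16.8% and 26.0% at 100 nM. BID remained the largest BH3-only transcript at 51.4%, 48.6% and 44.8%. The effectors summed to 239, 230 and 211 TPM, of which BAX made up 75.5%, 80.5% and 81.0%. The ratio of summed BH3-only to summed survival TPM was 0.715 with DMSO, 0.841 at 50 nM and 0.810 at 100 nM. The ratio of effector to survival TPM was 1.28, 1.28 and 1.13. These sums have no replicate error and are given as descriptions.

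Reads of a BH3-only or effector gene were also set against those of a survival protein that it binds, within each library, over 11 pairs. Such a ratio does not depend on how the libraries were scaled, and each change has an exact conditional 95% interval for counting error. Both genes of a pair come from the same library, and pairs that share a gene are not independent. Reads of PMAIP1 per read of MCL1 went from 0.111 with DMSO to 0.166 at 50 nM and 0.176 at 100 nM. These are log2 changes of 0.57 [0.42 to 0.73] and 0.66 [0.50 to 0.82]. BBC3 per read of MCL1 went from 0.0694 to 0.103 and 0.124, a log2 change of 0.57 [0.38 to 0.77] and 0.83 [0.64 to 1.02]. This was the pair that changed most at 100 nM.

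Against BCL2, which rose itself, the ratio of BBC3 was slightly higher at 100 nM and those of BCL2L11, BAX and BID were lower. BBC3 per read of BCL2 changed by 0.09 [-0.11 to 0.29] at 50 nM and 0.20 [0.01 to 0.39] at 100 nM on the log2 scale. BCL2L11 per read of BCL2 was 0.318, 0.270 and 0.225 in the 3 libraries, a change of -0.50 [-0.63 to -0.37] at 100 nM. BAX per read of BCL2 was 0.691, 0.595 and 0.486, a change of -0.51 [-0.61 to -0.41] at 100 nM. BID per read of BCL2 changed by -0.45 [-0.55 to -0.34] at 100 nM. BBC3, PMAIP1 and BCL2L11 thus gained on MCL1, with BCL2L11 per MCL1 at 0.14 [0.01 to 0.26] the smallest of these gains at 100 nM, whereas BCL2L11 and BID lost ground to BCL2.

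With BCL2L1 as the partner, BBC3 changed by 0.66 [0.37 to 0.95] and BAK1 by -0.51 [-0.77 to -0.25] at 100 nM on the log2 scale. BAK1 per read of MCL1 changed by -0.34 [-0.47 to -0.21], so that BAK1 fell by more than MCL1 did. PMAIP1 per read of BCL2A1 changed by 0.62 [-0.31 to 1.56], an interval that spans 0 because BCL2A1 had 21 to 27 reads.

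**Figure D3:**
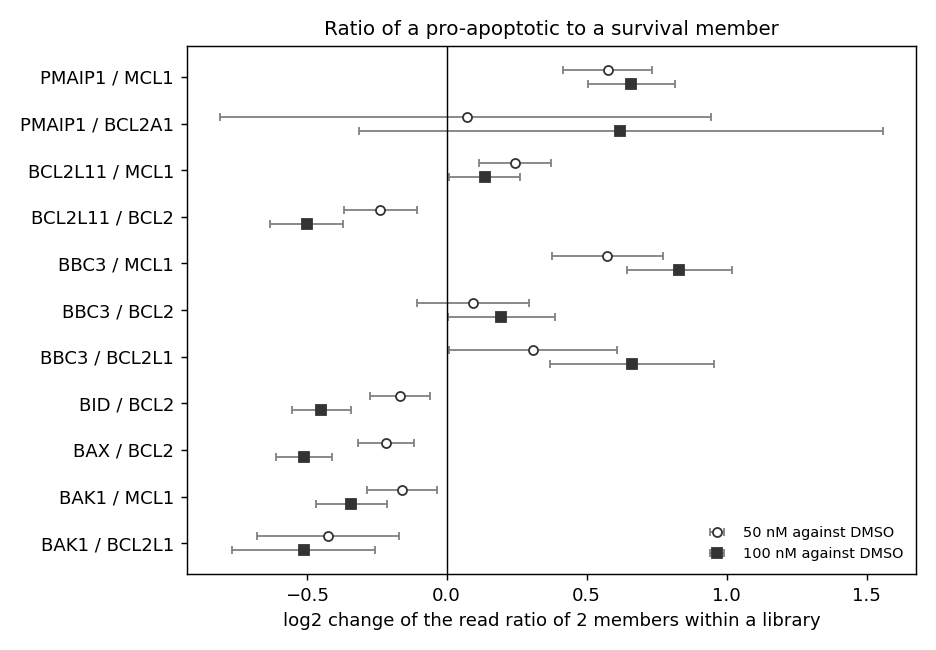
Log2 change of the read ratio of 11 pairs of an effector or BH3-only gene and a survival gene, in the 50 nM and the 100 nM library against DMSO. Bars are exact conditional intervals of 95% that cover counting error only. BBC3 per MCL1 (0.83) and PMAIP1 per MCL1 (0.66) lie highest among the intervals clear of 0 at 100 nM, with BBC3 per BCL2L1 (0.66) beside them, and BAX per BCL2 (-0.51), BAK1 per BCL2L1 (-0.51) and BCL2L11 per BCL2 (-0.50) lie lowest.

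The spread between replicate cultures is not known from 1 library per condition, so the members were also tested with spreads that were assumed. Under edgeR's exact test with a coefficient of variation of 0.1 between cultures and no fold threshold, 0 of the 10 members passed the adjusted p at 100 nM, against 1.89% of all genes tested. With the unadjusted p of that exact test, 4 members passed, BBC3 (p = 0.00722), BAK1 (p = 0.00773), PMAIP1 (p = 0.0469) and BCL2 (p = 0.0484), against 11.3% of all genes. The adjusted p of edgeR's exact test was 0.175 for BBC3 and 0.181 for BAK1. A linear dose trend over the 3 libraries, fitted with edgeR's quasi-likelihood test with 1 residual degree of freedom, gave an adjusted p of 0.000128 for BAK1, 0.000424 for BCL2, 0.000788 for BBC3, 0.00530 for PMAIP1 and 0.0386 for MCL1, and 5 members passed against 20.4% of all genes. That trend takes departures from a straight line as its only measure of error and shares them across genes. A gene can therefore pass without following a line itself. MCL1 passed although its log2 fold change between the pyrvinium libraries was 0.01 [-0.05 to 0.06]. For the tests of this paragraph, shares among the well counted genes, which include most members, were not computed. The shares of all genes given here are therefore not matched for depth.

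Other groups of genes around the family were described by counts and medians, beside all genes tested, with the adjusted p as the rule. Of 13 further BCL2 family genes, 9 passed the filter, and 1 rose and 3 fell at 100 nM, where 21.1% of all genes tested rose and 22% fell, with a median log2 fold change of -0.05. BCL2L13, a mitochondrial family member that also acts as a mitophagy receptor, had 1864 reads with DMSO, 2290 at 50 nM and 2711 at 100 nM, and rose by 0.48 [0.40 to 0.57] at 100 nM. BNIP3L, another mitophagy receptor, had 951, 818 and 957 reads. It was lower at 50 nM, with -0.18 [-0.32 to -0.05], and at -0.05 [-0.18 to 0.08] at 100 nM, which did not pass the test. These 2 genes are named for their mean counts and do not stand for the mitophagy genes of the list. Another of those, outside this choice, fell at both doses. BAD, a BH3-only gene singled out after its values were seen, had 236, 181 and 192 reads and fell, with -0.35 [-0.64 to -0.07]. BMF and BIK, BH3-only genes of the same list, lay at 0.20 [0.01 to 0.38] and -0.10 [-0.34 to 0.14] at 100 nM. Neither passed the adjusted p. BCL2L10, BCL2L14 and BOK had 0 reads in every library, and a count of 0 allows up to 3 reads, or 1.25e-05% to 1.32e-05% of a library.

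All 15 genes of the apoptosome, the caspases and the proteins released from or lining mitochondria passed the filter. At 100 nM 0 rose and 12 fell, where 22% of all genes tested and 29.9% of the well counted genes fell, and the median was -0.22. At 50 nM 1 rose and 6 fell, against 14.3% and 13.9% of all genes tested, with a median of -0.16. CASP6, an executioner caspase, had 217, 160 and 146 reads and was the 1 gene of this list to pass 1.5-fold, with -0.63 [-0.94 to -0.32] at 100 nM. VDAC3, a channel of the outer membrane, had 10085, 8922 and 8045 reads, with -0.38 [-0.43 to -0.34]. CYCS, which encodes cytochrome c, had 12018, 11822 and 12034 reads and fell by little, with -0.06 [-0.09 to -0.02]. APAF1, the scaffold of the apoptosome and singled out after its values were seen, had 1777, 1356 and 1439 reads, with -0.36 [-0.46 to -0.26].

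Of 5 inhibitor of apoptosis genes, 4 passed the filter, and 3 rose and 1 fell at 100 nM, against 21.1% and 22% of all genes tested, with a median of 0.18. BIRC6, named for its mean count, had 4118, 4413 and 4893 reads, with 0.19 [0.13 to 0.25]. Another gene of the list, with fewer reads, rose by more. BIRC5, which encodes survivin and is tied to mitosis, had 3152, 2691 and 2898 reads and fell, with -0.18 [-0.25 to -0.10]. Of 7 genes that control the turnover of the MCL1, NOXA or BIM proteins, 6 passed the filter, and 3 rose and 0 fell, beside the same shares of all genes, with a median of 0.09. HUWE1, a ubiquitin ligase for MCL1, had 9425, 10320 and 12024 reads, with 0.29 [0.26 to 0.33]. USP9X, which removes ubiquitin from MCL1, had 2077, 2081 and 2260 reads, with 0.06 [-0.02 to 0.15], and did not pass the test.

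Of 12 genes for transcription factors and stress cofactors linked to BH3-only genes, 10 passed the filter, and 8 rose and 1 fell at 100 nM, against 21.1% and 22% of all genes tested, with a median of 0.63. Of the 10, 3 passed 2-fold, as did 2.2% of all genes. At 50 nM 7 rose and 1 fell, against 14.3% and 13.9%, with a median of 0.40. JUN had 46, 87 and 116 reads, with 1.27 [0.77 to 1.80] at 100 nM. TRIB3, a pseudokinase target of CHOP, had 1739, 2480 and 4101 reads, with 1.18 [1.10 to 1.26]. DDIT3, which encodes CHOP, had 236, 319 and 500 reads, with 1.02 [0.80 to 1.26]. The other genes past 1.5-fold were CEBPB (0.69), ATF3 (0.65) and MYC (0.61). ATF4 had 12788, 16646 and 18669 reads, with 0.49 [0.46 to 0.52]. BBC3 and PMAIP1, at 0.60 and 0.43, were below the median of this list. The list was written with earlier results of these data known and is described only.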

How the data were processed

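Molm13 cells were sequenced after 6 h with DMSO, 50 nM or 100 nM pyrvinium, 1 library each, and conditions follow the sample labels. The authors made strand-specific mRNA libraries, used Rsubread to align the read pairs to hg19, and the deposited values are raw counts of reads per gene. Versions and the strand setting of the counting are not given in the sources used here. The submitters' processing notes name GRCh37 and hg19. A table of the authors' EBSeq comparisons (posterior probabilities, fold changes and means per condition) was left aside. A symbol was found for 23696 of the 25702 Entrez identifiers.

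Libraries were scaled with edgeR 4.0.16 (TMM, R 4.3.3), and a gene was tested if any library held at least 10 counts of it (12879 genes). With 1 library per condition no replicate-based test could be fitted between pairs, so each gene was compared between libraries by an exact binomial test conditional on the scaled sizes (scipy 1.17.1, two-sided, the smaller tail doubled), with Benjamini-Hochberg adjustment over all genes tested. The call required an adjusted p no higher than 0.05 and a 2-fold difference. Log2 fold changes had 0.5 counts added. Intervals and floors cover counting error only. TPM came from the counts and the gene lengths in the count tables. The procedure was tested on data simulated with counting error alone, which does not bear on the spread between cultures.

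The members and lists were chosen with earlier results of these data known. All 10 members are named, and of other lists at most 6 genes past 1.5-fold at 100 nM whose higher library held 50 counts or more, and up to 2 with the highest mean counts, exceptions being marked. For the farthest member of each role, the 3 genes nearest in log2 fold change at both doses are named. Promoter sequences are RefSeq's. Protein sequences were not used here. A gene of the lists is not reported here by name. Alternatives were total counts, size factors from DESeq2 1.42.0, TMM without mitochondrial genes, other count filters and fold thresholds, 5 counts added, assumed biological coefficients of variation of 0.1, 0.2 and 0.4 and a linear dose trend. An unadjusted p and the last 2 kinds without a fold threshold were added after seeing the data.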

Additional observations from a re-analysis of the deposited data

How the results depend on the processing

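No paired analysis was possible because each condition has 1 library, and for the same reason no replicate could be left out. With DESeq2 size factors, total counts, TMM without mitochondrial genes, no count filter, at least 50 counts, 5 counts added or an unadjusted p, 0 of the 10 members were called at 2-fold in any of the 3 comparisons, as in the main result, and also with each assumed coefficient of variation. With a threshold of 1.5-fold, 1 member was called at 100 nM. With no fold threshold, 6 members were called at 100 nM against DMSO, 5 at 50 nM and 5 at 100 nM against 50 nM. The shares of all genes tested in these comparisons were 43.1%, 28.2% and 16.9%. The dose trend without a fold threshold called 5 members, against 20.4% of all genes tested. The scaling alternatives moved the log2 fold change of a member by at most 0.0060. Over all genes at 100 nM, 283 were called, against 146 with at least 50 counts, 864 at 1.5-fold and 5550 with no fold threshold. At 2-fold, 138, 12 and 0 were called with assumed coefficients of variation of 0.1, 0.2 and 0.4, and 183 by the dose trend. TPM without mitochondrial genes were 1.10 to 1.12 times the values given, for all 30 member values. BCL2A1 is limited by depth, with 21 to 27 reads.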

Other observations

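For the member that moved farthest in each role, the genes with the most similar pair of log2 fold changes at 50 nM and 100 nM were listed among 9978 genes whose mean count was 100 or more. The measure was the Euclidean distance between the pairs, over 3 libraries, and both changes share the DMSO library. Nearest to BBC3 were ARRDC3 (183, 227 and 288 reads with DMSO, 50 nM and 100 nM), CCDC92 (120, 149 and 189 reads) and IFRD1 (989, 1226 and 1553 reads), and 132 genes lay within a distance of 0.1. Nearest to BAK1 were ATP6V1C1 (4444, 3300 and 3110 reads), LRRC20 (313, 233 and 221 reads) and EXO1 (1576, 1168 and 1098 reads), with 122 genes within 0.1. BCL2 was nearest to BMI1 (11561, 13341 and 15914 reads), CCDC174 (493, 568 and 682 reads) and PDZD7 (211, 245 and 290 reads), with 428 genes within 0.1.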
